A study of Arabidopsis thaliana with 16 samples.

Results

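The 5 genes described here encode wall-loosening and wall-remodelling proteins of Arabidopsis thaliana: the alpha-expansins EXPA8 and EXPA15, the beta-expansins EXPB1 and EXPB3, and the xyloglucan endotransglucosylase/hydrolase XTH16. They were chosen by their symbols in the platform annotation, with earlier results of these data known. The shares over all probe sets given below are therefore context and not an independent test of the members. Each member had exactly 1 probe set assigned to that gene alone, 5 of the 22746 probe sets that are not array controls. The probe sets are 255822_at for EXPA8 (AT2G40610), 266770_at for EXPA15 (AT2G03090), 265443_at for EXPB1 (AT2G20750), 253815_at for EXPB3 (AT4G28250) and 257203_at for XTH16 (AT3G23730), with loci as RefSeq's table for TAIR10.1 gives them.

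Expansins loosen the bonds between cellulose and the other wall polymers at acid pH, without cutting them, so that a turgid cell can extend. XTH enzymes cut xyloglucan, the main hemicellulose of these walls, and can rejoin the cut end to another xyloglucan chain. Phytochrome B is the main red-light photoreceptor of light-grown shoots and restrains stem and petiole elongation, and its active form reverts to the inactive one faster in warmth.

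Transcripts were measured in 16 samples of whole plants without roots, 1 Affymetrix ATH1 array each, with 2 arrays in each of 8 groups. The groups are phyB-1, a phytochrome B mutant, and Ler, the Landsberg erecta wild type, each at 22 °C and at 16 °C and each taken at 10 h and at 4 h, an hour count whose starting point the labels do not give. The seeds of all groups were stratified at 4 °C for 5 days, and the 1 growth protocol given for all of them names 11 days at 16 °C and then 21 days at 22 °C, so what the plants labelled 16 °C went through is not clear from it. Separate cultures are not stated for the 2 arrays of a group, and the p-values measure the spread between these samples, which may be technical. The mutant is 1 stock carrying 1 allele, and no probe set was named for PHYB itself, whose transcript was not analysed here.

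The values are MAS5 intensities, a linear brightness per probe set scaled to a common mean, and differences are on the scale log2(intensity + 16), which understates the change of dim probe sets. Median intensities were 30.7 to 41.0 on the 16 arrays and lower quartiles 5.84 to 11.5. The shoot markers RCA and LHCB4.1, 2 of 15 listed with a named probe set, summed to 9775 to 22494 on every array. The 5 named root markers of 17 summed to 121 to 391, most of it from the gene PYK10. Replicate arrays correlated at 0.960 to 0.975 in 6 groups, but at only 0.863 (4 h) and 0.878 (10 h) in phyB-1 at 16 °C. A time score contrasted the mean log2 level of 200 probe sets that were high at 10 h with the mean of 200 that were high at 4 h. It lay between 1.97 and 2.49 on the other arrays labelled 10 h and between -2.40 and -2.16 on the other arrays labelled 4 h. In phyB-1 at 16 °C, replicate 2 scored -1.90 under the label 10 h and 2.31 under the label 4 h, so each of these arrays stood with those of the other time. Neither was relabelled when all 16 arrays were fitted. All groups share 1 estimate of the spread, so these 2 arrays then enter the standard errors of every comparison, also of those that do not hold them. The tests are also given for the 14 arrays without them, with the replicate number as a block. In that 14-array fit each phyB-1 group at 16 °C is 1 array.

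Sampling time separated the members more clearly than genotype or temperature did. In Ler, the 4 expansins were lower at 10 h and XTH16 was higher at 10 h, in each temperature, with no overlap between the 2 arrays at 10 h and the 2 arrays at 4 h. Of all tested probe sets 15% were lower and 14.4% higher at 10 h without overlap at both temperatures. With all 16 arrays, 4 of 5 members were called lower at 10 h than at 4 h in Ler (limma, Benjamini-Hochberg adjusted p under 0.05, 4 arrays against 4), where 8.7% of the 13648 tested probe sets were called lower. The median of the 5 differences was -1.61 on the log2 scale, against -0.0062 over all tested probe sets. In the 14-array fit all 5 were called, 4 lower and 1 higher, against backgrounds of 16.4% lower and 16% higher.

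**Figure D1:**
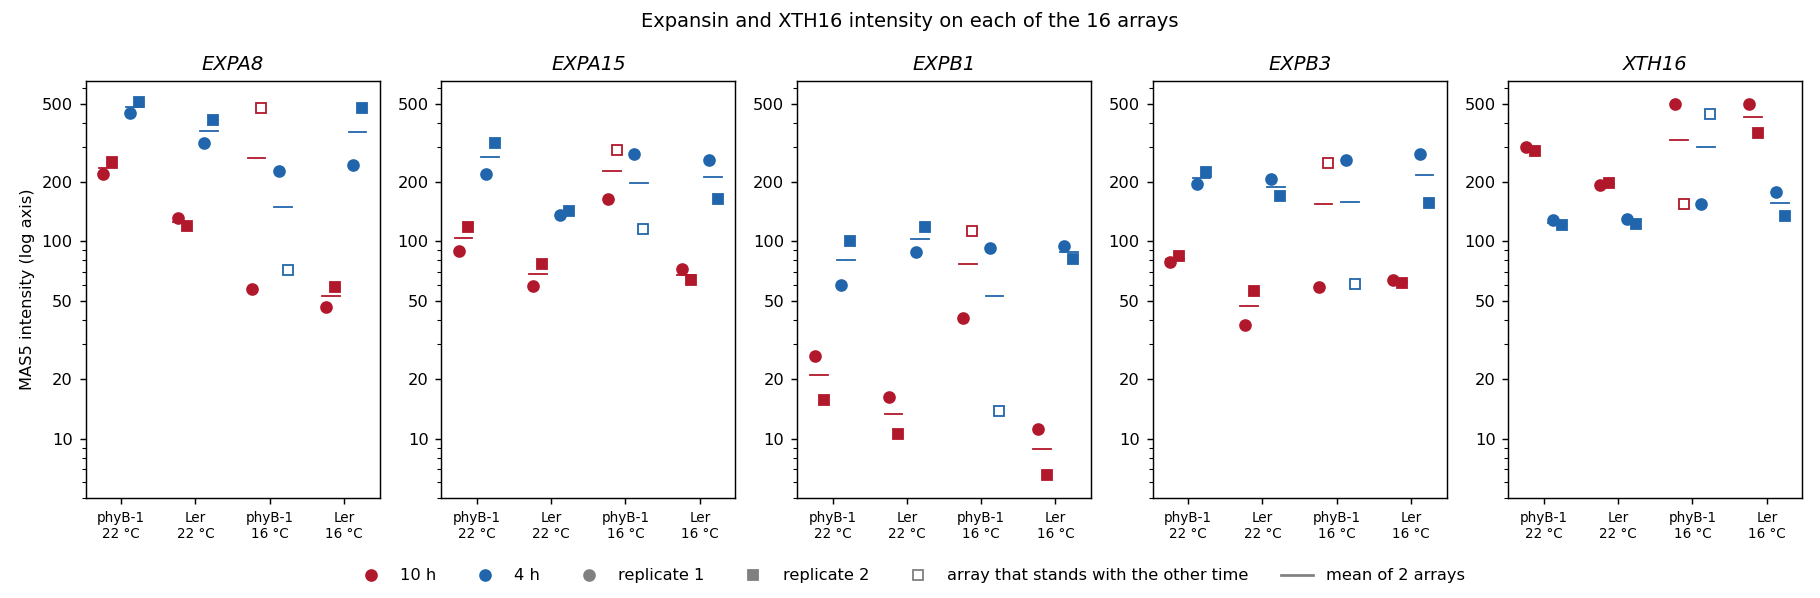
MAS5 intensity (log axis) of EXPA8, EXPA15, EXPB1, EXPB3 and XTH16 on each of the 16 arrays, by genotype and temperature, with 10 h in red left of 4 h in blue, circles for replicate 1, squares for replicate 2, open squares for the 2 arrays that stand with the other time and a line for the mean of 2 arrays. In Ler at 16 °C EXPA8 lies at 46.7 and 58.8 at 10 h and at 245 and 475 at 4 h, while XTH16 lies at 495 and 356 at 10 h and at 178 and 135 at 4 h.

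EXPA8 encodes an alpha-expansin. At 22 °C its intensity in Ler was 131 and 120.1 at 10 h, against 314 and 414 at 4 h. At 16 °C the Ler values were 46.7 and 58.8 at 10 h, against 245 and 475 at 4 h. The lowest Ler arrays for EXPA8 were thus those of 10 h at 16 °C. Averaged over the temperatures the difference in Ler was -1.90 ± 0.46 (SE, adjusted p = 0.0139 with all 16 arrays, limma). Leaving out Ler 22 °C 4 h replicate 2 or Ler 16 °C 4 h replicate 2 ended the call (adjusted p = 0.0533 and 0.0587).

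EXPA15, the other alpha-expansin, had 59.4 and 77.1 at 10 h in Ler at 22 °C, against 136 and 142 at 4 h. At 16 °C it had 72.2 and 63.5 at 10 h in Ler, against 259.6 and 163 at 4 h. The 10 h levels at both temperatures lay within 1 range, 59.4 to 77.1. Its difference in Ler, -1.15 ± 0.26, was called with all 16 arrays (adjusted p = 0.00972, limma) and under all 24 alternative settings.

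The beta-expansins belong to the family that also holds the grass pollen allergens. EXPB1 had 16.2 and 10.5 at 10 h in Ler at 22 °C, against 87.8 and 119 at 4 h. At 16 °C it had 11.1 and 6.50 at 10 h in Ler, against 94.6 and 81.2 at 4 h. These 10 h levels lie near the lower quartiles of the arrays, so the added 16 sets the size of the difference. It was -2.04 ± 0.35 (adjusted p = 0.00394, limma), and -3.04 with 1 added and -1.08 with 64 added, and it was called in all of these.

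EXPB3 had 37.5 and 56.2 at 10 h in Ler at 22 °C, against 207 and 169.9 at 4 h. At 16 °C it had 63.6 and 61.4 at 10 h in Ler, against 276 and 156 at 4 h. EXPB3 was thus above the lower quartiles at both times. The difference in Ler was -1.61 ± 0.39 (adjusted p = 0.0141, limma, all 16 arrays), and the call ended without Ler 22 °C 4 h replicate 1, Ler 22 °C 10 h replicate 1 or Ler 16 °C 4 h replicate 1 (adjusted p = 0.0522, 0.0578 and 0.0619).

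XTH16, the 1 member that acts on xyloglucan, ran the other way. It had 193 and 197 at 10 h in Ler at 22 °C, against 129 and 123 at 4 h. At 16 °C it had 495 and 356 at 10 h in Ler, against 178 and 135 at 4 h. The increase at 10 h was 1.95-fold over both temperatures (log2 0.96 ± 0.32), which missed the threshold with all 16 arrays (adjusted p = 0.0585, limma). The 14-array fit called it (adjusted p = 6.4e-06), and it was also called when any 1 of the 4 arrays of phyB-1 at 16 °C was left out (adjusted p = 0.0136 to 0.0160).

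The same order of the times was measured in phyB-1 at 22 °C. EXPA8 had 220.2 and 252 at 10 h in phyB-1 at 22 °C, against 449.5 and 511 at 4 h. EXPA15 had 88.9 and 118 at 10 h there, against 220.0 and 313 at 4 h. Both alpha-expansins were lower at 10 h on each array. EXPB1 had 26.3 and 15.7 at 10 h, against 60.4 and 101 at 4 h. EXPB3 had 78.4 and 84.5 at 10 h, against 195 and 226 at 4 h. XTH16 had 300.5 and 286 at 10 h, against 128 and 121 at 4 h. No member overlapped between the times in phyB-1 at 22 °C, where 26.7% of tested probe sets were lower and 28.6% higher at 10 h without overlap.

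With all 16 arrays none of these 5 differences in phyB-1 at 22 °C, 2 arrays against 2, was called (limma, adjusted p = 0.0802 to 0.451), where 2.45% of tested probe sets were, although 4 of the 5 had an unadjusted p under 0.05. Without the doubtful arrays all 5 were called in the 14-array fit, against a background of 21.5% of tested probe sets. The log2 differences were -0.98 for EXPA8, -1.23 for EXPA15, -1.37 for EXPB1, -1.21 for EXPB3 and 1.14 for XTH16. Whether the time difference itself differed between phyB-1 and Ler at 22 °C was tested as an interaction, and no member was called in either fit, where 0% of tested probe sets were called over 16 arrays and 0.00733% over 14. The smallest unadjusted p was 0.0322, for XTH16 in the 14-array fit (0.57 ± 0.24, adjusted p = 1.0, limma).

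In phyB-1 at 16 °C the pair of arrays disagreed at each time. EXPA8 had 57.6 (replicate 1) and 473 (replicate 2) on the arrays labelled 10 h, against 227 and 71.7 on those labelled 4 h. XTH16 had 499.7 and 155 on the arrays labelled 10 h, against 155 and 445 on those labelled 4 h. The replicate 1 arrays ran in the same direction as the other groups for all 5 members, and the replicate 2 arrays ran in the opposite one. EXPA15 had 164 and 292 on the arrays labelled 10 h, against 279 and 115 on those labelled 4 h. EXPB1 had 41.0 and 112 on the arrays labelled 10 h, against 92.1 and 13.8 on those labelled 4 h. EXPB3 had 58.8 and 249 on the arrays labelled 10 h, against 257 and 61.1 on those labelled 4 h. In the 14-array fit, which has 1 array against 1 here and borrows its spread from the other groups, EXPA8 (-1.73 ± 0.29), EXPB3 (-1.87 ± 0.33) and XTH16 (1.59 ± 0.24) were called, against 12.2% of tested probe sets. EXPA15 (-0.71 ± 0.32) and EXPB1 (-0.92 ± 0.37) were not.

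**Figure D2:**
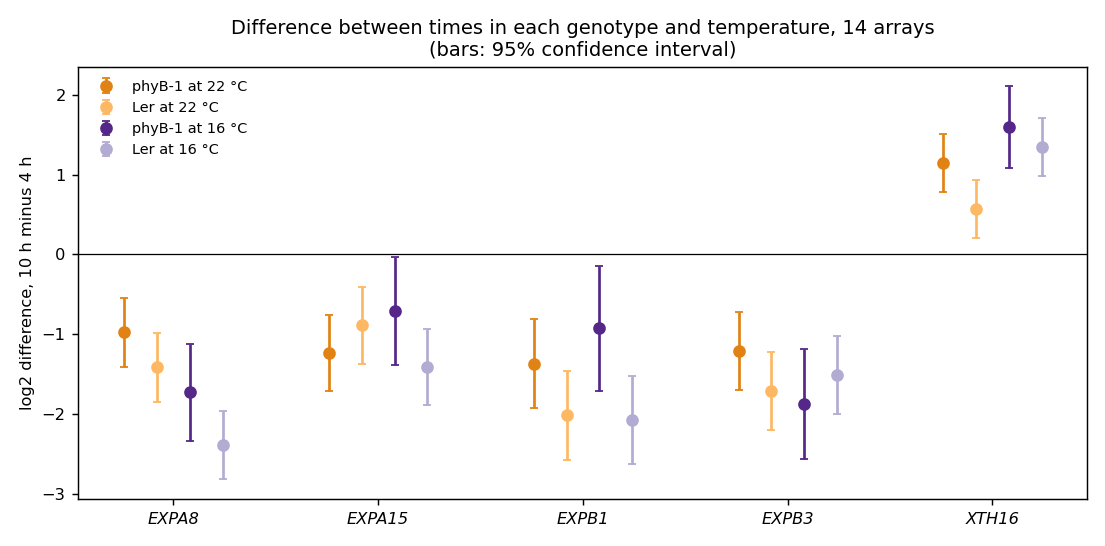
Difference on the log2 scale between 10 h and 4 h for each member in each genotype and temperature, fitted on 14 arrays with the replicate block, with 95% confidence intervals as bars. The 4 expansins lie below 0 and XTH16 above 0 in all 4 conditions, with EXPA8 at -2.39 in Ler at 16 °C and XTH16 at 1.59 in phyB-1 at 16 °C.

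Other transcripts moved with time as well. The photosynthesis gene RCA, one of the shoot markers, fell at 10 h in Ler (log2 -0.83 ± 0.20, adjusted p = 0.0142, limma), and TUB9, a tubulin gene on the list of flower markers, rose (1.27 ± 0.28, adjusted p = 0.00934). The sum of the 2 named shoot markers in Ler was 11423 to 13167 at 10 h, against 16130 to 22494 at 4 h. The sum of the 2 named flower markers of 15 in Ler, nearly all of it TUB9, was 728 to 923 at 10 h, against 264 to 394 at 4 h. The other flower marker, EXPB5, was dim and ran the other way. In Ler it averaged 6.10 at 10 h against 23.8 at 4 h at 16 °C, and 12.7 against 16.0 at 22 °C. The part of these transcripts in the time differences of the members was not tested. In RNA of whole shoots, fewer cells that express a gene and less RNA of it per cell cannot be told apart.

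The series title asks about a control of phytochrome B by temperature, for which the test is the genotype by temperature interaction given further below. The genotype difference at each temperature comes first. At 22 °C both alpha-expansins were higher in phyB-1 than in Ler on every array at each time, while the beta-expansins and XTH16 were not separated at both times. EXPA8 had 220.2 and 252 at 10 h in phyB-1, against 131 and 120.1 in Ler, and at 4 h 449.5 and 511 in phyB-1, against 314 and 414 in Ler. EXPA15 had 88.9 and 118 at 10 h in phyB-1, against 59.4 and 77.1 in Ler, and at 4 h 220.0 and 313 in phyB-1, against 136 and 142 in Ler. So 2 of 5 members were higher in phyB-1 without overlap at either time, where 5.74% of tested probe sets were.

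The size was 1.53-fold for EXPA8 (log2 0.61 ± 0.46 SE) and 1.59-fold for EXPA15 (0.67 ± 0.26), averaged over the times, 4 arrays against 4. With all 16 arrays neither was called (limma, adjusted p = 1.0 for EXPA8 and 0.930 for EXPA15), and 0.0293% of tested probe sets were. This comparison holds neither doubtful array, and both sizes were the same over 14 arrays. The SE alone differed, as the spread shared by all 16 arrays includes the doubtful ones. In the 14-array fit with the replicate block both passed, close to the threshold (EXPA8 ± 0.14, adjusted p = 0.0453, and EXPA15 ± 0.16, adjusted p = 0.0486), where 1.25% of tested probe sets were called. Without the block the same 14 arrays called neither (adjusted p = 0.226 and 0.126), against a background of 0.506%. Within replicate set 1 and set 2, the arrays that carry the same replicate number, EXPA8 differed by 0.59 and 0.64 and EXPA15 by 0.56 and 0.79.

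Measures of RNA quality and a root marker also differed along this contrast. The log2 ratio of 3′ to 5′ signal of the GAPDH control was higher in phyB-1 at 22 °C in all 4 pairs of arrays of 1 time and replicate number, at 0.60 to 0.81 in phyB-1 and 0.32 to 0.75 in Ler. That of the actin control was lower in phyB-1 in 3 of the 4 pairs, at 1.39 to 1.57 in phyB-1 and 1.24 to 1.85 in Ler. PYK10, a beta-glucosidase gene of roots, had 301 to 374 in phyB-1 at 22 °C, against 182 to 259 in Ler. The sum of the 5 named root markers was 319.7 to 391 in phyB-1 and 223 to 288 in Ler. The part of these in the alpha-expansin differences was not tested.

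XTH16 overlapped between the genotypes at 4 h, with 128 and 121 in phyB-1 at 22 °C, against 129 and 123 in Ler. At 10 h it had 300.5 and 286 in phyB-1, against 193 and 197 in Ler. EXPB3 likewise separated at 10 h alone, with 78.4 and 84.5 in phyB-1, against 37.5 and 56.2 in Ler. With the alpha-expansins, 4 of 5 members were higher in phyB-1 without overlap at 10 h, where 19.4% of tested probe sets were. Tested at 10 h alone, neither was called in the 14-array fit (XTH16 0.55 ± 0.17, adjusted p = 0.270, EXPB3 0.65 ± 0.23, adjusted p = 0.380, limma), and nor was EXPA8 (0.83 ± 0.20, adjusted p = 0.0977), where 0.44% of tested probe sets were called. EXPA15 had the smallest difference of these 4 members at 10 h alone, 0.50 ± 0.23, and was not called there either. EXPB1 overlapped between phyB-1 and Ler at both times, and its mean difference was 0.00076, with a 95% confidence interval of -0.76 to 0.76 with all 16 arrays and of -0.39 to 0.39 in the 14-array fit.

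At 16 °C no member was called between phyB-1 and Ler in either fit, where 0.0147% of tested probe sets were called over 16 arrays and 0.352% over 14. EXPA15 was again the larger of the 2 alpha-expansin differences, at 0.66 ± 0.26 with all 16 arrays (adjusted p = 0.939, limma) and 0.79 ± 0.21 in the 14-array fit (adjusted p = 0.134), and it was 0.36 without phyB-1 16 °C 4 h replicate 1. On replicate 1 alone, it was 0.096 at 4 h, with 279 in phyB-1 against 259.6 in Ler, and 1.03 at 10 h, with 164 in phyB-1 against 72.2 in Ler. EXPB1 at 10 h on replicate 1 was 41.0 in phyB-1 and 11.1 in Ler. For EXPA8 the difference at 16 °C was 0.090 over 16 arrays and -0.075 over 14, with a 95% confidence interval in the second of -0.47 to 0.32.

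Whether the genotype difference itself changed with temperature was tested as the interaction, the difference at 22 °C minus that at 16 °C. No member and no other probe set was called over 16 or over 14 arrays (0% of 13648 in each, limma, with 321 and 1155 at an unadjusted p under 0.05). EXPA8 had the largest difference of the members, 0.52 ± 0.65 with all 16 arrays (adjusted p = 1.0) and 0.69 ± 0.24 in the 14-array fit (adjusted p = 0.441). Its 95% confidence interval with all 16 arrays was -0.88 to 1.93, and over 14 arrays without the block it was at 0.84. A dependence of the EXPA8 difference on temperature was therefore neither shown nor excluded, as it was not called after adjustment over all tested probe sets. EXPA15 was at 0.017 ± 0.37 with all 16 arrays, with a 95% confidence interval of -0.77 to 0.80.

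The temperature comparisons share their arrays with the genotype comparisons, and they set 22 °C against 16 °C within 1 genotype. In Ler at 10 h, EXPA8 was higher and EXPB3 and XTH16 were lower at 22 °C without overlap, as were 23.3% (higher) and 19.2% (lower) of tested probe sets. EXPA8 had 131 and 120.1 at 22 °C and 10 h, against 46.7 and 58.8 at 16 °C. At 4 h it had 314 and 414 at 22 °C, within the 245 and 475 measured at 16 °C. XTH16 had 193 and 197 at 22 °C and 10 h, against 495 and 356 at 16 °C, and at 4 h 129 and 123 at 22 °C, against 178 and 135 at 16 °C. XTH16 was thus lower at 22 °C without overlap at either time, as were 5.25% of tested probe sets. EXPB3 at 10 h had 37.5 and 56.2 at 22 °C, against 63.6 and 61.4 at 16 °C, and it overlapped at 4 h. EXPA15 at 4 h had 136 and 142 at 22 °C, against 259.6 and 163 at 16 °C, so EXPA15 and XTH16 were lower at 22 °C without overlap at 4 h, where 17.2% of tested probe sets were.

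Averaged over the times, the difference in Ler between 22 °C and 16 °C was 0.56 ± 0.46 for EXPA8, or 0.33 without Ler 16 °C 4 h replicate 1, and -0.66 ± 0.32 for XTH16. With all 16 arrays no member was called (limma, adjusted p = 0.774 and 0.550), and 0.396% of tested probe sets were. Over 14 arrays with the block both were called (adjusted p = 0.0268 and 0.00344), against a background of 6.93%, and without the block XTH16 alone (adjusted p = 0.0179, against 0.113 for EXPA8), against 2.98%. At 10 h alone the values were 1.05 ± 0.20 for EXPA8 (2.06-fold, adjusted p = 0.00608) and -1.05 ± 0.17 for XTH16 (adjusted p = 0.00183), where 4.89% of tested probe sets were called. At 4 h alone they were 0.074 ± 0.20 and -0.27 ± 0.17, and neither was called, where 2.05% of tested probe sets were. The difference between the times in the temperature response was itself not called for either gene (14-array fit, EXPA8 0.97 ± 0.29, adjusted p = 0.142, XTH16 -0.78 ± 0.24, adjusted p = 0.169), where 0.879% of tested probe sets were called.

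**Figure D3:**
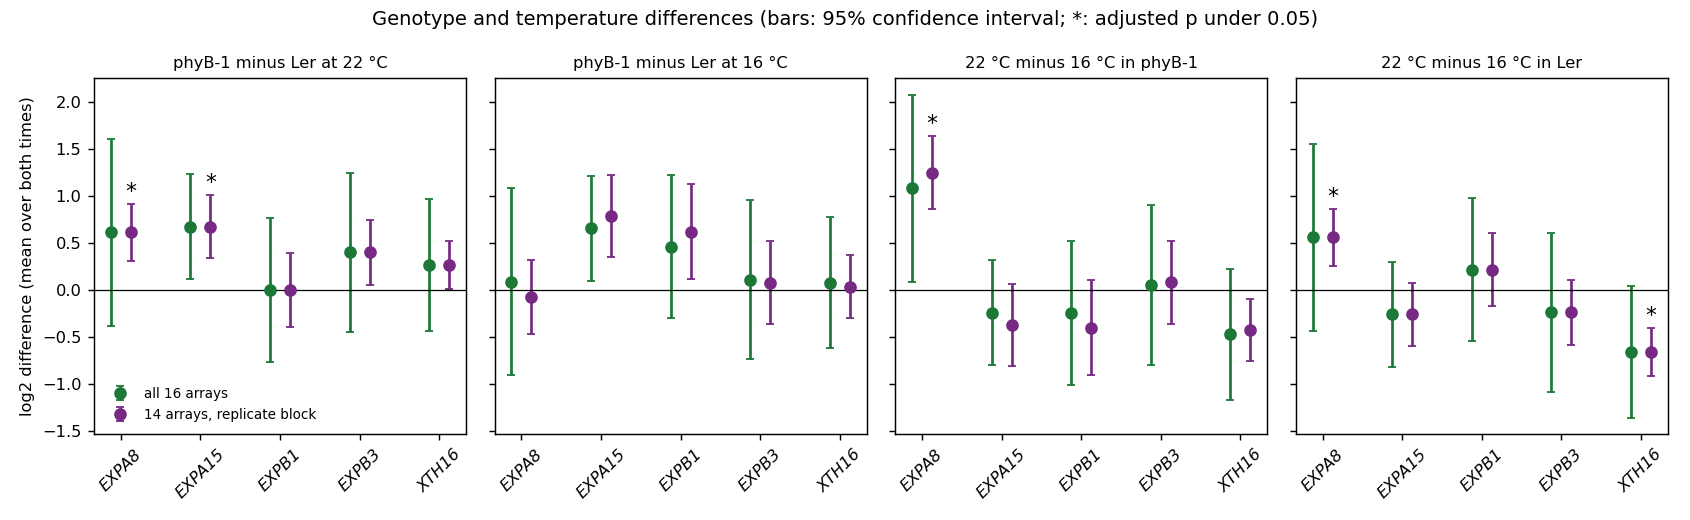
Genotype and temperature differences on the log2 scale, averaged over both times, for each member, in green over 16 arrays and in purple over 14 with the replicate block, with 95% confidence intervals as bars and asterisks at adjusted p under 0.05. No member carries an asterisk with all 16 arrays, while in the 14-array fit EXPA8 carries one in 3 panels, EXPA15 in phyB-1 minus Ler at 22 °C and XTH16 in 22 °C minus 16 °C in Ler.

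In phyB-1 EXPA8 was again higher at 22 °C, by 1.08 ± 0.46 with all 16 arrays (limma, adjusted p = 0.394), where 0.637% of tested probe sets were called. Over 14 arrays it was called at 1.25 ± 0.19 (adjusted p = 0.000858), against a background of 5.79%, and it was also called without the block at 1.40 ± 0.22 (adjusted p = 0.00213), against 3.82%. In the fit that starts from all 16, its size moved with single arrays of phyB-1 at 16 °C, and it was 0.40 without 10 h replicate 1, 0.72 without 4 h replicate 2 and 1.77 without 10 h replicate 2, where it was called (adjusted p = 0.0143). On replicate 1 it had 220.2 at 22 °C against 57.6 at 16 °C at 10 h, and 449.5 at 22 °C against 227 at 16 °C at 4 h. XTH16 was at -0.47 ± 0.32 over 16 arrays and at -0.43 ± 0.16 over 14 (adjusted p = 0.635 and 0.114), and with 1 array left out it ran over -0.87 to -0.074, both without an array of phyB-1 at 16 °C and 10 h. EXPA15, EXPB1 and EXPB3 were called in neither genotype, with 95% confidence intervals in Ler in the 14-array fit of -0.60 to 0.08, -0.17 to 0.61 and -0.58 to 0.11. The GAPDH ratio overlapped between the temperatures, the doubtful arrays included. It was lower at 22 °C in 3 of 4 pairs of arrays in each genotype. In phyB-1 it was 0.60 to 0.81 at 22 °C against 0.51 to 1.63 at 16 °C, and in Ler 0.32 to 0.75 against 0.53 to 0.73. The actin ratio did not overlap in phyB-1, at 1.39 to 1.57 at 22 °C against 1.59 to 2.13 at 16 °C. In Ler it overlapped, at 1.24 to 1.85 against 1.34 to 1.80. PYK10 in phyB-1 had 301 to 374 at 22 °C against 212 to 262 at 16 °C, and it overlapped in Ler. The part of these ratios and of PYK10 was not tested.

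Over the 8 groups, EXPA8 was highest in phyB-1 at 22 °C and 4 h, at 480.2 ± 43.4 (mean ± SD, n = 2), and lowest in Ler at 16 °C and 10 h, at 52.7 ± 8.59. Both ends of the EXPA8 order were separated from the group next in mean, and the groups between overlapped in turn. Neither end was separated from all other groups. The highest overlapped Ler at 16 °C and 4 h (245 to 475) and phyB-1 at 16 °C and 10 h (57.6 to 473). The lowest also overlapped phyB-1 at 16 °C and 10 h. EXPA15 was highest in phyB-1 at 22 °C and 4 h, at 267 ± 66.1, and lowest in Ler at 10 h, at 68.3 ± 12.5 at 22 °C and 67.8 ± 6.13 at 16 °C, which overlapped each other but not phyB-1 at 22 °C and 10 h, at 103 ± 20.5. EXPB1 was highest in Ler at 22 °C and 4 h, at 103 ± 21.9, and lowest in Ler at 16 °C and 10 h, at 8.81 ± 3.26, with every neighbouring pair of its order overlapping. EXPB3 was highest in Ler at 16 °C and 4 h, at 216 ± 84.6, and its lowest 3 groups, phyB-1 at 22 °C, Ler at 16 °C and Ler at 22 °C, all at 10 h, did not overlap, at 81.5 ± 4.31, 62.5 ± 1.52 and 46.9 ± 13.2. XTH16 was highest in Ler at 16 °C and 10 h, at 426 ± 98.7, and lowest in phyB-1 at 22 °C and 4 h, at 124 ± 5.18, which overlapped Ler at 22 °C and 4 h, at 126 ± 4.69. The groups of phyB-1 at 16 °C, which hold the doubtful arrays, had SDs of 50.4 to 294 over the 5 genes.

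Across the 16 arrays the log2 levels of the 4 expansins ran together, with Pearson correlations from 0.66 (EXPA8 and EXPA15) to 0.91 (EXPB1 and EXPB3). XTH16 ran against each of them, from -0.89 with EXPA8 to -0.54 with EXPA15. These arrays share times, and within 4 h, over the 6 arrays outside phyB-1 at 16 °C, the correlations among the expansins lay between -0.65 and 0.66. Within 10 h, over the 6 arrays outside phyB-1 at 16 °C, they lay between 0.26 and 0.83. XTH16 did not run against each expansin within a time. Within 4 h it was at -0.81 with EXPA8, 0.27 with EXPA15, -0.025 with EXPB1 and 0.63 with EXPB3. Within 10 h these correlations were -0.53, 0.058, -0.22 and 0.48.

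The genes whose level over the 16 arrays was most like that of a member were sought among the 7373 other tested probe sets with 1 gene. For EXPA8 they were AT1G26920 (r = 0.94), AT5G16030 (0.94) and AT4G24780 (0.93), and for EXPA15 AT4G16140 (0.94), AT5G57610 (0.92) and AT1G75180 (0.91). For EXPB1 they were AT3G13040 (0.96), AT3G27570 (0.96) and AT5G01790 (0.95). EXPB3 was most like GH9C2 (0.97), which encodes a glycosyl hydrolase of the cellulase kind, then AT1G60590 (0.96) and AT1G48100 (0.96). XTH16 was most like AT2G34510 (0.95), AT4G16563 (0.94) and COR47 (0.94), a cold-regulated dehydrin gene. Of the 3 genes, those also among the 3 most alike over 14 arrays were 2 for EXPA8, 1 for EXPA15, 0 for EXPB1, 2 for EXPB3 and 3 for XTH16.

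GH9C2 in Ler had 69.1 and 73.2 at 10 h and 22 °C, against 469 and 695 at 4 h. COR47 in Ler at 10 h had 980.2 and 958 at 22 °C, against 2252 and 2234 at 16 °C. These genes were picked for their likeness over the same arrays, which fixes that they run with their member.

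The 2 families hold further genes, 64 on the lists besides the 5 members, with 23 of them named on the array and 9 bright enough to be tested. With all 16 arrays, 5 of these 9 were called higher at 10 h in Ler and 1 lower, against backgrounds of 8.48% and 8.7%. Those higher were the expansin-like genes EXLA1 (log2 2.87 ± 0.80) and EXLB1 (1.29 ± 0.24), the alpha-expansin EXPA16 (1.04 ± 0.27), XTH33 (2.21 ± 0.68) and EXGT-A3, an endoxyloglucan transferase gene (1.40 ± 0.30), at adjusted p = 0.00479 to 0.0399 (limma). The expansin-like proteins carry both expansin domains, but wall loosening has not been shown for them. XTH32 was lower, by 2.51 ± 0.42 (adjusted p = 0.00379). EXPA4 and EXPA9 were at -0.34 ± 0.25 and -0.06 ± 0.23 and were not called.

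XTH32 had 103 and 155 at 10 h in Ler at 22 °C, against 785 and 784 at 4 h, and 108 and 136 at 10 h in Ler at 16 °C, against 677 and 897 at 4 h. XTH32 thus ran with the 4 expansins and not with XTH16. EXLA1 had 840.0 and 1194 at 10 h in Ler at 16 °C, against 37.9 and 64.3 at 4 h, and 169.4 and 169.4 at 10 h in Ler at 22 °C, against 32.3 and 44.2 at 4 h. So neither family ran in 1 direction between the times.

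**Figure D4:**
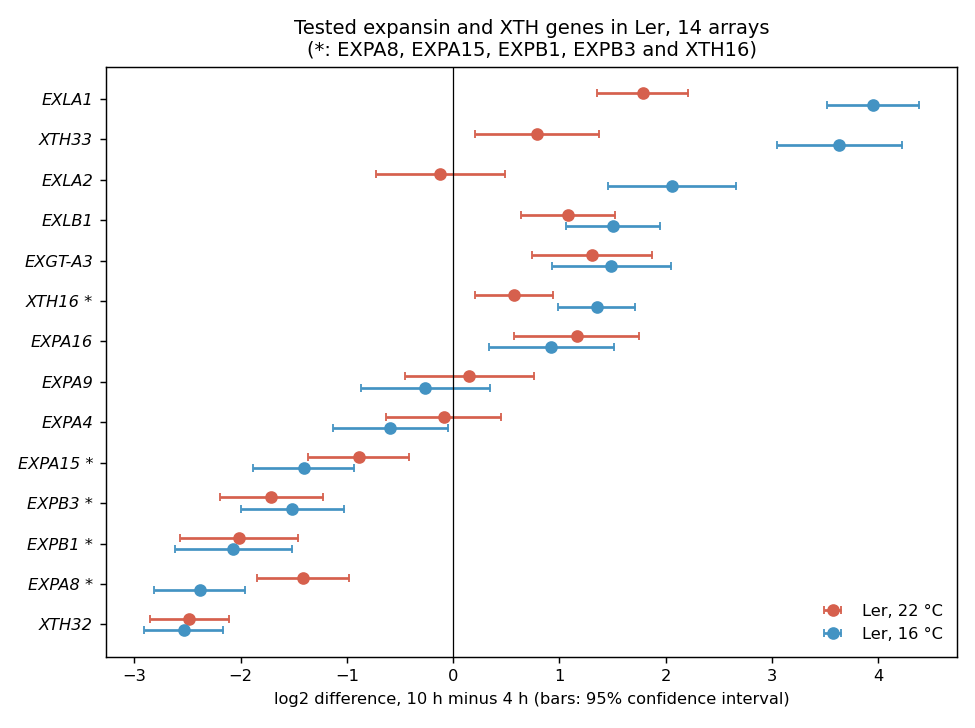
Difference on the log2 scale between 10 h and 4 h in Ler at 22 °C (red) and at 16 °C (blue) for the 14 tested expansin and XTH genes, fitted on 14 arrays with the replicate block, with 95% confidence intervals as bars and asterisks at the 5 members. XTH32 lies at -2.49 at 22 °C and -2.53 at 16 °C, EXLA1 at 1.78 and 3.95, and XTH33 at 0.79 and 3.63.

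None of the 9 was called between the genotypes at either temperature or in the interaction, in either fit. With all 16 arrays 0.0293% of tested probe sets were called at 22 °C, 0.0147% at 16 °C and 0% in the interaction. The shares over 14 arrays, given above, were small as well, so these counts do not set the 9 apart from other probe sets. Over 14 arrays EXLA1 (-1.37 ± 0.14, adjusted p = 2.8e-05, limma) and EXLA2 (-1.06 ± 0.20, adjusted p = 0.00448) were lower at 22 °C than at 16 °C in Ler, and with all 16 arrays neither was called (adjusted p = 0.639 and 0.551). In phyB-1 the same genes were at -0.86 ± 0.19 and -0.99 ± 0.26 in the 14-array fit (adjusted p = 0.0116 and 0.0339), calls that ended without the block (adjusted p = 0.0597 and 0.0896). EXLA1, EXLA2 and XTH16 were thus the family genes called lower at 22 °C in Ler in the 14-array fit, and EXPA8 the 1 called higher. In that comparison 6.93% of tested probe sets were called in either direction.

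Genes of the other wall lists were few among the named probe sets. Of 19 genes of xyloglucan synthesis and trimming 3 were tested, and CSLC04, a glucan synthase-like gene, was called higher at 10 h in Ler (log2 0.67 ± 0.21, adjusted p = 0.0417, limma). The 1 tested gene of cellulose synthesis, COB, and the 2 tested genes of pectin modification, PME61 and ATPMEPCRB, were not called at 10 h in Ler with all 16 arrays. ATPMEPCRB in Ler ran in opposite directions at the 2 temperatures. It had 200 and 222 at 10 h at 16 °C, against 63.2 and 49.8 at 4 h, and 31.3 and 35.6 at 10 h at 22 °C, against 74.9 and 53.3 at 4 h. PME61 overlapped between the times at both temperatures. No gene on the list of wall structural proteins had a named probe set. Among 38 upstream growth regulators 4 were tested. HAT2, a homeodomain gene of the shade and auxin response, was lower at 10 h in Ler (-1.09 ± 0.26, adjusted p = 0.0122, limma) and GID1A, a gibberellin receptor gene, was higher (0.77 ± 0.16, adjusted p = 0.00757). HYH and GID1C were not called with all 16 arrays. HYH in Ler had 1.53 and 6.39 at 10 h at 22 °C, against 40.3 and 44.7 at 4 h, and 10.2 and 0.660 at 10 h at 16 °C, against 81.3 and 46.4 at 4 h. Its 10 h levels lie below the added 16. Of all tested probe sets 8.7% were called lower and 8.48% higher at 10 h in Ler with all 16 arrays.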

How the data were processed

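The authors deposited 1 linear intensity for each probe set on each array. GCOS and its MAS5 method produced them, per the submitters' processing notes, with versions not given in the sources used here. RNA was prepared with a column kit and labelled with biotin per the labels' protocols. The 2% trimmed mean of each array was within 0.00152% of their median, near 100, so the deposited scaling was kept. Of 22810 probe sets 64 are array controls. Of the rest 13513 had 1 gene in the platform annotation, 503 had several, which were not named, and 8730 were not listed. The number of arrays, 2 per group, limits the precision.

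The test was limma 3.58.1 under R 4.3.3, applied to log2(intensity + 16). It covered the 13648 probe sets whose mean lay in the upper 60%, the 5 members among them, with 1 mean per group, all groups sharing 1 spread, a moderated variance (eBayes, trend on) and Benjamini-Hochberg adjustment over all tested. The code was tested on simulated data. Same-numbered arrays deviated together in all 15 pairs among the 6 groups outside phyB-1 at 16 °C (correlation 0.15 to 0.48), and in 27 of all 28 pairs, so the replicate number was a block in the 14-array fit (5 residual degrees of freedom, against 8 with all 16 arrays). That fit was planned because earlier work had shown the 2 doubtful arrays. Alternatives were the added offset, no filter on dim probe sets, quantile normalization, the replicate block, 12 arrays without phyB-1 at 16 °C, and each array left out. The members, lists and alternatives were chosen with earlier results of these data known. The named genes are the 5 members, every other tested expansin or XTH gene that was called, up to 4 called genes of each other list, and the 3 genes most correlated with each member. Figures were drawn with matplotlib 3.10.9.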

Additional observations from a re-analysis of the deposited data

How the results depend on the processing

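The number of members called depended on the arrays and the block. Between phyB-1 and Ler at 22 °C it was 2 on 14 arrays with the replicate block, against 0 on the same 14 without it and 0 on all 16 with or without it. Between 22 °C and 16 °C it was 2 in Ler in that fit, 1 without the block and 1 with the 12 arrays, against 0 with all 16, and in phyB-1 it was 1 with and without the block, against 0. Between 10 h and 4 h in phyB-1 at 22 °C it was 5 in each of these fits, against 0. Of the 13648 tested probe sets, 2939 were called there on 14 arrays with the block and 2137 without it. On the 12 arrays 2152 were called, against 334 with all 16. Between the temperatures in Ler, the 12 arrays called 411 of the 13648, against 54 with all 16. Leaving out 1 array at a time gave 3 to 5 members between 10 h and 4 h in Ler, 0 to 2 in phyB-1 at 22 °C, 0 to 1 between the temperatures in phyB-1 and 0 in the other 4 comparisons. The replicate block on all 16 arrays changed no member's call, while the probe sets it called were 5 and 1 between phyB-1 and Ler at 22 and 16 °C, 86 and 129 between the temperatures in Ler and phyB-1, 0 in the interaction, and 2823 and 313 between the times in Ler and in phyB-1 at 22 °C. Directions turned for values near 0. EXPB1 between phyB-1 and Ler at 22 °C was 0.00076 and went to -0.042 with 64 added, -0.030 with quantile normalization and -0.15 to 0.15 with 1 array left out. The phyB-1 minus Ler difference of EXPA8 at 16 °C was -0.075 and -0.23 on 14 arrays with and without the block, against 0.090 with all 16. The interaction of EXPA15 was -0.12 and -0.082, against 0.017 with all 16. These turns came with leaving out the 2 doubtful arrays, after which each phyB-1 group at 16 °C is 1 array. With 1 array left out, the phyB-1 minus Ler difference at 16 °C ran over -0.59 to 0.77 for EXPA8, 0.36 to 0.95 for EXPA15, -0.0033 to 0.93 for EXPB1, -0.35 to 0.56 for EXPB3 and -0.32 to 0.48 for XTH16, and the difference between 22 °C and 16 °C in phyB-1 over 0.40 to 1.77 for EXPA8, -0.53 to 0.051 for EXPA15, -0.71 to 0.22 for EXPB1, -0.40 to 0.51 for EXPB3 and -0.87 to -0.074 for XTH16. The interaction ran over -0.16 to 1.21 for EXPA8, -0.28 to 0.31 for EXPA15, -0.93 to 0.0041 for EXPB1, -0.16 to 0.75 for EXPB3 and -0.21 to 0.58 for XTH16. Counts of called probe sets ran, with 1 array left out and over the other alternatives, over 0 to 9 and 0 to 170 (main 4) for phyB-1 minus Ler at 22 °C, 1 to 20 and 1 to 48 (main 2) at 16 °C, 7 to 90 and 33 to 946 (main 54) for 22 °C minus 16 °C in Ler, 23 to 211 and 57 to 790 (main 87) in phyB-1, 1211 to 2853 and 1858 to 4435 (main 2346) between the times in Ler, and 0 to 1302 and 34 to 2939 (main 334) in phyB-1 at 22 °C. In the interaction they ran over 0 to 8 and stayed at 0.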

Other observations

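The response of 3 other genes of the families to time differed between the temperatures in Ler in the 14-array fit with the replicate block, where 0.879% of tested probe sets were called for the difference between the time responses at 22 °C and 16 °C. EXLA1 was at -2.17 ± 0.29 (SE, adjusted p = 0.00138, limma), XTH33 at -2.85 ± 0.39 (adjusted p = 0.00154) and EXLA2 at -2.18 ± 0.40 (adjusted p = 0.0137). With all 16 arrays none of the 3 was called (adjusted p = 1.0 for each), and without the block EXLA2 was not (adjusted p = 0.0596). EXLA2 had 21.8 and 22.0 at 10 h in Ler at 22 °C, against 28.6 and 22.2 at 4 h, and 151 and 154 at 10 h in Ler at 16 °C, against 16.1 and 34.9 at 4 h. XTH33 had 54.2 and 29.2 at 10 h in Ler at 22 °C, against 16.2 and 16.98 at 4 h, and 256 and 191 at 10 h in Ler at 16 °C, against 5.80 and 0.748 at 4 h. Several of these levels lie below or near the added 16, which therefore bears on the size of the values.

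On replicate 1 of phyB-1 at 16 °C, EXLA1 had 1143 at 10 h, against 24.5 at 4 h, and XTH33 had 206 at 10 h, against 2.06 at 4 h. The doubtful replicate 2 arrays ran the other way, with EXLA1 at 109 on the array labelled 10 h, against 1086 on the array labelled 4 h.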
